A study of Mus musculus with 4 samples.

Results

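The genes described here are 8 transcripts of the dystrophin glycoprotein complex and its autosomal counterpart: Dmd, Utrn, Dag1, Sgca, Sgcb, Sgcd, Dtna and Nos1. They were found by matching the Entrez number in each probe set ID to the gene symbol, and all 8 were present among the 16492 probe sets tested, 1 probe set per gene. For 7 of them the platform annotation gave the same name; Sgca was named by its Entrez number (20391) alone. The data were Affymetrix arrays of quadriceps muscle RNA from 4 mice, each hybridised with the RNA of 1 animal. The 2 mdm mutants have the genotype label of a titin mutant. The 2 controls have the label of titin wild type and are called wild type below. Groups follow the genotype label; the titles mark the mutants Ttn+ and the wild types Ttn-, and what that sign stands for is not stated. If the titles meant the opposite genotypes, every difference and direction given here would turn. Both groups carry the strain label B6C3Fe a/a-Ttnmdm/J, so the non-agouti a/a background is shared, and the label names the mdm allele of titin, the giant spring protein of the sarcomere. Each mouse has its own number in the labels, which state no age, sex, zygosity or litter. Values are log2 levels from RMA, a method that corrects background, normalizes arrays to each other and summarises the probes of a set. Group levels are means ± SD, and differences are log2 values of mdm mutant minus those of wild type, ± the standard error from limma, with n = 2 mice per group throughout. As a check of the tissue, skeletal actin (Acta1) read 14.98 on every array, the top of the scale. Titin (Ttn) read 12.66 and 12.68 in the mdm mutants, against 12.58 and 12.65 in the wild types (0.05 ± 0.05, adjusted p = 0.564), and since the labels do not place its probes relative to the mutation, this checks nothing about the genotypes.

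The dystrophin glycoprotein complex links the actin cytoskeleton under the muscle fibre membrane to the laminin of the basement membrane outside it. Dystrophin binds actin with one end and dystroglycan with the other, the sarcoglycans clamp and stabilise dystroglycan in the membrane, and dystrobrevin, the syntrophins and neuronal nitric oxide synthase sit on the inner face. Loss of dystrophin or of a sarcoglycan causes muscular dystrophy, and utrophin, which in healthy adult fibres is concentrated at the neuromuscular and myotendinous junctions, spreads along the membrane in dystrophin-deficient muscle. The mdm mouse is a dystrophy model with its lesion in titin instead, so the comparison shows the levels of the complex's transcripts where the complex itself is not the mutated part. Arrays measure RNA, and the amount of complex at the membrane was not measured.

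None of the 8 genes differed between mdm mutant and wild type muscle at an adjusted p under 0.05 (limma, Benjamini-Hochberg over all probe sets), where 12.8% of all probe sets tested passed. At an unadjusted p under 0.05, 3 of the 8 passed in limma (Dmd and Dag1 above wild type, Sgcb below), against 30.7% of all probe sets. Without moderation of the variances 0 of the 8 had an unadjusted p under 0.05, against 19.9% of all probe sets. The mutants' values lay entirely above the wild types' for 3 genes (Dmd, Utrn and Dag1), which held for 26.7% of all probe sets, and entirely below for 2 (Sgcb and Nos1), which held for 34.2%. The other 3 genes overlapped. These shares are close to the background, so the counts by themselves set the 8 genes apart from the array in no direction. Their median difference was −0.03, beside −0.02 over all probe sets. Their median absolute difference was 0.13, beside 0.10. The 95% intervals of the 8 genes, which are not corrected for the number of genes, reach at most a 1.59-fold higher level (Dmd) and at the other end 0.774 of the wild type level (Sgca). With 2 mice against 2, an exact 2-sided permutation test cannot go below p = 0.333 for any gene.

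Dystrophin (Dmd, Entrez 13405), the long rod-like protein that joins actin to the membrane, had the largest difference of the 8. It read 10.28 and 10.34 in mdm mutant 1 and 2, against 9.76 and 10.03 in wild type 1 and 2. Both mutants lay above both wild types, by at least 0.25, and the wild type mice differed from each other by 0.27 while the mutants differed by 0.07. Averages of 10.31 ± 0.05 in mdm mutants and 9.89 ± 0.19 in wild types put the difference at 0.42 ± 0.10, which is 1.34-fold (95% interval 0.17 to 0.67, limma adjusted p = 0.0519). This value sits at the threshold, and without moderation of the variances Dmd did not pass (limma adjusted p = 0.307, 95% interval −0.18 to 1.02). It passed without the dimmer probe sets (adjusted p = 0.0473, where 10.2% of probe sets were called higher), with trended and robust variances (0.0447, 7.18% called higher) and without wild type 2 (0.0459, 1.74% called higher). Without wild type 1, whose value was the lowest of the 4, the difference was 0.28 and did not pass (adjusted p = 0.116), nor did it pass without mdm mutant 1 or mdm mutant 2 (0.120 and 0.191). A probe set named by gene cannot tell apart the full-length muscle transcript and the shorter transcripts that start inside the gene, and which exons its probes cover is not stated in the labels.

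The sequence before the start of dystrophin transcription is shown because Dmd had the largest difference and because this window holds a CArG box, the element bound by serum response factor, which is known from muscle gene promoters. RefSeq's promoter table (GRCm38.p6) gives 2 start sites for Dmd. The window shown lies 134206 bases downstream of the first base of the gene, at chrX:82948620-82948869 on the plus strand, and comprises the 250 bases before the start. Whether the full-length muscle transcript or a shorter form starts there was not determined here, and the distance alone does not tell. The CArG box is in capitals, from 98 to 89 bases before the start:
Dmd promoter: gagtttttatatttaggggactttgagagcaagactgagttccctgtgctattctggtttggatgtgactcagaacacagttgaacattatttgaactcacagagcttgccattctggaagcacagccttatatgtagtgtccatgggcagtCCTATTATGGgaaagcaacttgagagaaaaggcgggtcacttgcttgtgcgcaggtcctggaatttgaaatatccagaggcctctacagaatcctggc
A CArG box, whose pattern reads the same on both strands, occurred in 1.47% of the 32851 windows of this length in the table. It was found at 1 of the 9 start sites read for 7 of the genes, and not at the other start site of Dmd. The E-box CANNTG, bound by myogenic factors and also the same on both strands, occurred 2 times in the window shown, at 7 of the 9 start sites, and in 66.2% of all windows. A match is a string of letters and shows no binding.

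Utrophin (Utrn, Entrez 22288), the dystrophin homologue that can take dystrophin's place on dystroglycan, read 7.69 and 7.71 in the mdm mutants, against 7.54 and 7.62 in the wild types. The mutants again lay above both wild types, but by a gap of 0.07, less than the 0.08 between the wild type mice. Averages were 7.70 ± 0.01 in mdm mutants and 7.58 ± 0.06 in wild types, which differ by 0.12 ± 0.06 (adjusted p = 0.207). The 95% interval ran from −0.02 to 0.26, so a level of more than 1.20-fold that of wild type lies outside it on the deposited scale. With the arrays centred on hybridization controls the difference was 0.23 (interval 0.09 to 0.37, limma adjusted p = 0.0403), on a scale where 17.2% of all probe sets were called higher. Whether probes of Dmd and Utrn respond to each other's transcripts was not tested.

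Dystroglycan (Dag1, Entrez 13138) encodes the receptor pair in which the alpha subunit binds laminin and the beta subunit spans the membrane and holds dystrophin. It read 10.22 and 10.30 in the mdm mutants, against 10.01 and 10.08 in the wild types, and the groups were 0.14 apart at their nearest values. Averages of 10.26 ± 0.06 in mdm mutants and 10.04 ± 0.05 in wild types gave a difference of 0.22 ± 0.06 or 1.16-fold (95% interval 0.07 to 0.36), which did not pass (adjusted p = 0.0701). Within-group gaps were of similar size in the mutants (0.08) and the wild types (0.07). With any 1 mouse left out the difference stayed between 0.18 and 0.26 and the adjusted p between 0.113 and 0.249.

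**Figure D1:**
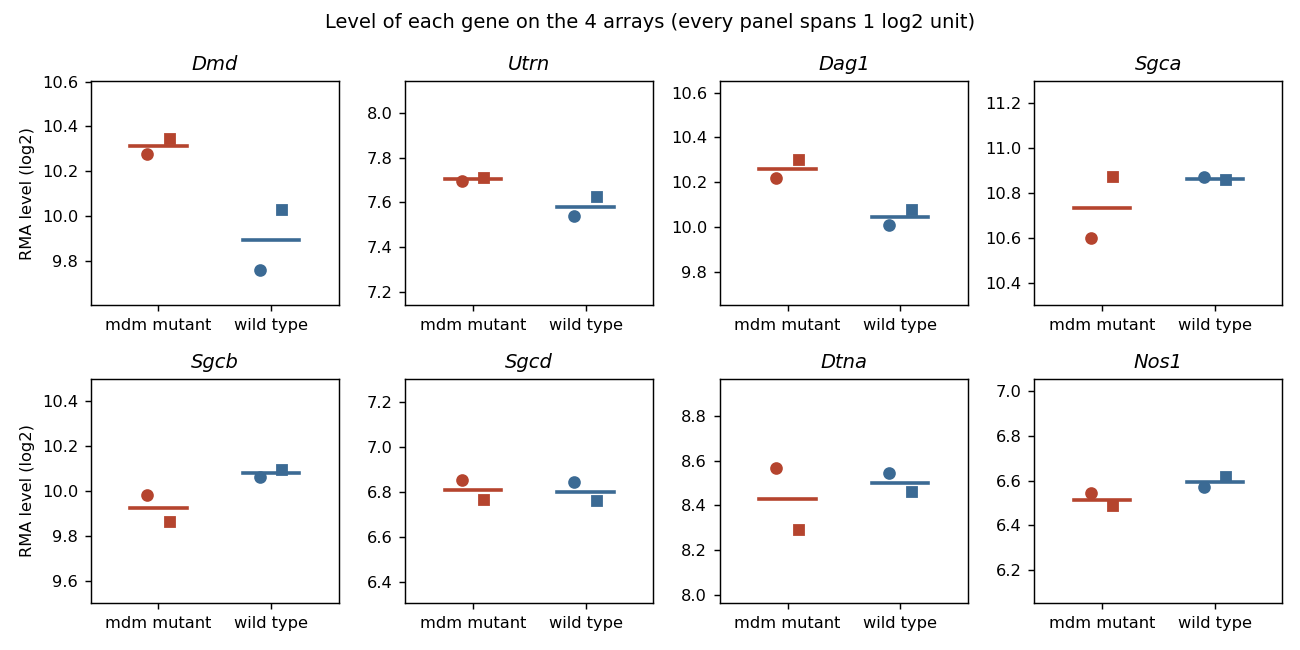
RMA level (log2, vertical axis) of the 8 genes in each mouse, with mdm mutant (red) left of wild type (blue); circles are mouse 1 and squares mouse 2 of a group, and lines are group means. Each panel spans 1 log2 unit around its own centre. The widest gap between the groups is in Dmd, where the mutants lie at 10.28 and 10.34 and the wild types at 9.76 and 10.03. That gap of 0.25 is less than the 0.27 between the wild type mice.

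The sarcoglycans are single-pass membrane proteins that assemble as a tetramer beside dystroglycan, and mutations in any of those of muscle fibres cause limb-girdle muscular dystrophy. Sgcb (beta-sarcoglycan, Entrez 24051), part of the core around which the tetramer forms, was the sarcoglycan nearest to the threshold. It read 9.98 and 9.86 in the mdm mutants, against 10.06 and 10.09 in the wild types, so both mutants lay below both wild types. Averages of 9.92 ± 0.08 in mdm mutants and 10.08 ± 0.02 in wild types gave a difference of −0.16 ± 0.06 (95% interval −0.31 to −0.00094) with an adjusted p of 0.160. Sgca (alpha-sarcoglycan), found in skeletal and cardiac muscle, read 10.60 and 10.87 in the mdm mutants, against 10.87 and 10.86 in the wild types. Only mdm mutant 1 stood low, and mdm mutant 2 and wild type 1 had the same value to the last digit given. Its difference of −0.13 ± 0.10 (adjusted p = 0.426) was 0.01 without mdm mutant 1. Sgcd (delta-sarcoglycan, Entrez 24052), the core partner of Sgcb, read 6.85 and 6.77 in the mdm mutants, against 6.84 and 6.76 in the wild types. The groups overlapped almost fully, with a difference of 0.01 ± 0.06 (95% interval −0.15 to 0.16, adjusted p = 0.950).

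On the cytoplasmic side, alpha-dystrobrevin (Dtna, Entrez 13527), a dystrophin relative that anchors syntrophins, read 8.57 and 8.29 in the mdm mutants, against 8.54 and 8.46 in the wild types. The mutants spanned both wild types, so the groups overlapped. The difference was −0.07 ± 0.10 (95% interval −0.33 to 0.18, adjusted p = 0.677), and it was 0.07 without mdm mutant 2 and 0.04 with the arrays centred on hybridization controls. Neuronal nitric oxide synthase (Nos1, Entrez 18125), the enzyme that makes nitric oxide at the fibre membrane, read 6.54 and 6.49 in the mdm mutants, against 6.57 and 6.62 in the wild types. The mutants lay below the wild types by a gap of only 0.03, less than the 0.06 between the mutants. The difference was −0.08 ± 0.05 (95% interval −0.21 to 0.06, adjusted p = 0.388), and 0.03 with the hybridization controls. Nos1 and Sgcd lay below the median of all probe sets in mean level. The table holds no detection calls, so whether they stood above background was not measured here.

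**Figure D2:**
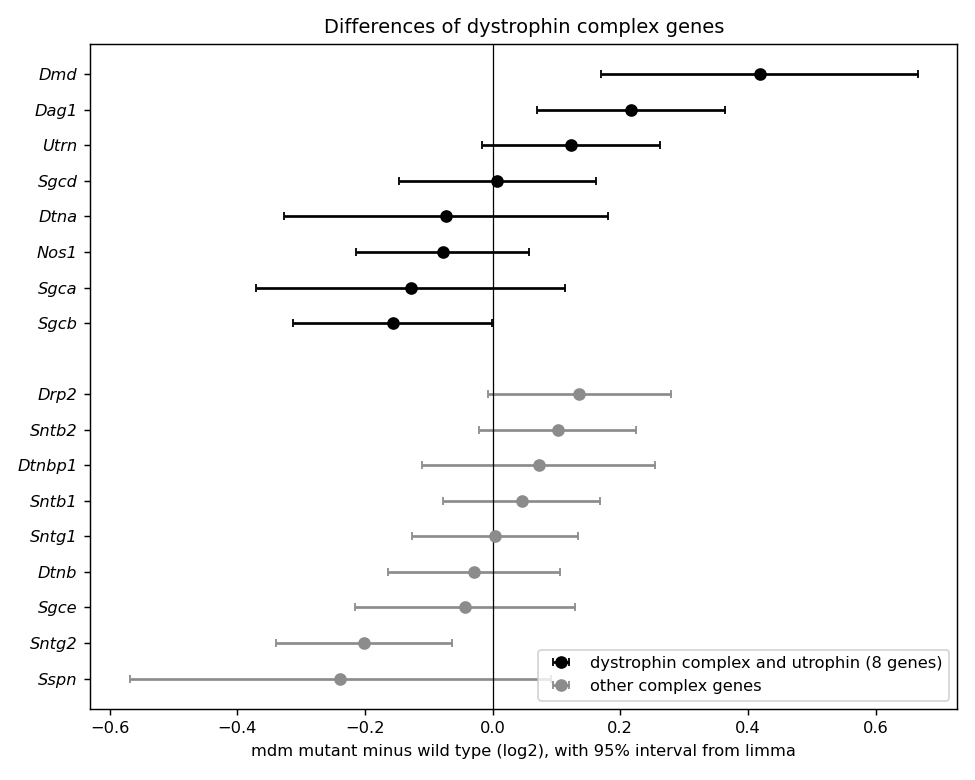
Difference between mdm mutant and wild type (log2, horizontal axis) with the 95% interval from limma, for the 8 genes (black, top) and 9 other genes of the complex (grey, bottom). The intervals of Dmd, Dag1 and Sgcb, and of Sntg2 among the other genes, exclude 0 before adjustment over the array, none of the 17 genes passed after it, and Dmd lies furthest to the right at 0.42.

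How the 8 genes stood relative to one another does not depend on any constant added to an array. Relative to each of the other 7 genes, Dmd was higher in both mdm mutants than in both wild types, in 7 of 7 pairs. The smallest of these differences was 0.20 (Dmd minus Dag1) and the largest 0.58 (Dmd minus Sgcb). The 7 pairs share the Dmd values, and Dmd was singled out after its values were seen, so this is a description with no test. The absolute position of the genes does depend on the scale. The 18 hybridization control probe sets, transcripts of known amount added before the arrays are hybridised, averaged 11.01 and 10.99 in the mdm mutants and 11.10 and 11.12 in the wild types. Centring the arrays on them moved the median difference of all probe sets by 0.11 and every gene by the same amount. Dmd, Dag1 and Utrn then passed, at 0.53, 0.33 and 0.23 (limma adjusted p = 0.0210, 0.0224 and 0.0403), on a scale where 17.2% of all probe sets were called higher. Sgcb and Sgca then stood at −0.04 and −0.02. The controls did not share 1 shift. The bioC probe sets lay furthest down, at −0.27 to −0.16 for mdm mutant minus wild type, followed by bioB at −0.24 to −0.14. Differences of −0.13 to 0.03 were seen for bioD, and cre was slightly higher in the mutants (0.01 to 0.07). Results on this scale rest on the average of these controls.

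**Figure D3:**
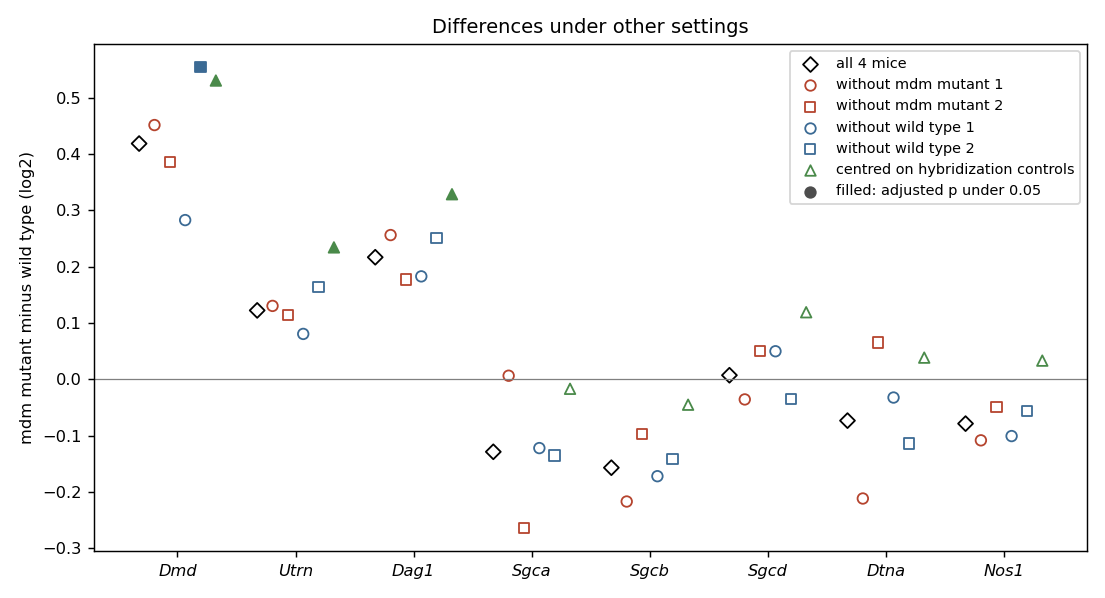
Differences between mdm mutant and wild type (log2, vertical axis) for each of the 8 genes with all 4 mice, with each mouse left out, and with the arrays centred on hybridization controls; filled symbols have an adjusted p under 0.05. Dmd, Utrn and Dag1 lie above 0 in every setting drawn, Sgcb lies below 0, and Sgca, Sgcd, Dtna and Nos1 each change sign in at least 1 of them.

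The complex has further members among the syntrophins, dystrobrevins and sarcoglycans. Of 12 listed, 9 were matched in the platform annotation and 3 were not analysed here. None of the 9 passed the test in limma, beside 12.8% of all probe sets, and their median difference was 0.00. At an unadjusted p under 0.05 there was 1 of the 9, beside 30.7% of all probe sets. That 1 was the gamma-syntrophin Sntg2, an adaptor of dystrophin's inner face, which read 6.72 and 6.75 in the mdm mutants, against 6.97 and 6.90 in the wild types (−0.20 ± 0.05, adjusted p = 0.0717). Sspn (sarcospan, which sits with the sarcoglycans) differed by −0.24 ± 0.13, Drp2 (a dystrophin relative known from Schwann cells) by 0.14 ± 0.06 and the syntrophin Sntb2 by 0.10 ± 0.05. With the hybridization controls Drp2 and Sntb2 passed as higher, on a scale where 17.2% of all probe sets were called higher. With trended and robust variances Sntg2 passed as lower.

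The next list holds enzymes that build the laminin-binding sugar chain on alpha-dystroglycan. Of 18 listed, 13 were matched. Of these, 3 fell, 0 rose and the other 10 missed the threshold, where 12.8% of all probe sets were called in either direction. At an unadjusted p under 0.05 in limma there were 8 of the 13, beside 30.7% of all probe sets. The median was −0.11 against −0.02 over all probe sets. Those that fell were Pomgnt2, which adds the second sugar of the chain, Rxylt1, a xylosyltransferase of its ribitol part, and Dpm1, the catalytic subunit of the synthase that supplies mannose. Pomgnt2 read 7.59 and 7.59 in the mdm mutants, against 7.90 and 7.91 in the wild types (−0.31 ± 0.05, adjusted p = 0.0220). Dpm1 and Rxylt1 differed by −0.27 ± 0.05 and −0.24 ± 0.05 (adjusted p = 0.0317 and 0.0407), and Gmppb, which makes the mannose donor, stood at 0.22 ± 0.06 without passing. For the comparison with hybridization controls that follows, 17.2% of all probe sets were called higher on that scale. With any 1 mouse left out none of the 3 passed (adjusted p 0.0691 to 0.158), and with the hybridization controls none of them did (0.0501, 0.0979 and 0.145) while Gmppb and Dpm2 passed as higher.

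Outside the fibre, 9 ligands and partners of dystroglycan and the sarcoglycans gave 1 rise, 1 fall and 7 that did not pass, with a median of −0.03. Of all probe sets 12.8% were called in either direction. At an unadjusted p under 0.05 in limma there were 2 of the 9, beside 30.7% of all probe sets. Biglycan (Bgn), a small proteoglycan that binds the complex, read 11.49 and 11.66 in the mdm mutants, against 10.74 and 10.85 in the wild types, so the groups lay well apart. It rose by 0.78 ± 0.08 (adjusted p = 0.00923) and passed with any 1 mouse left out. The laminin chain Lama5 fell by 0.24 ± 0.05 (adjusted p = 0.0464), which was lost with any mouse left out (adjusted p 0.0945 to 0.178) and with the hybridization controls (0.134). Agrin (Agrn) and Lama4 differed by −0.13 ± 0.06 and −0.12 ± 0.07 without passing. Lama2, the main laminin chain of muscle fibres and named after its values were seen, differed by 0.02 ± 0.12.

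Around nitric oxide synthase, 8 of 9 listed genes were matched. Of these, 1 rose, 0 fell and the other 7 missed the threshold (median −0.12), where 12.8% of all probe sets were called in either direction. At an unadjusted p under 0.05 in limma there were 4 of the 8, beside 30.7% of all probe sets. Dynll1, a dynein light chain that binds the synthase, read 11.70 and 11.69 in the mdm mutants, against 11.19 and 11.18 in the wild types, with both mutants above both wild types. It rose by 0.50 ± 0.05 or 1.42-fold (adjusted p = 0.00824) and passed with any 1 mouse left out. Muscle phosphofructokinase (Pfkm), a glycolytic enzyme that binds the synthase, differed by −0.37 ± 0.09 (adjusted p = 0.0539). The cGMP-dependent kinase Prkg1 and the guanylate cyclase subunit Gucy1a1, which carry the nitric oxide signal onward, stood at −0.31 ± 0.08 and −0.24 ± 0.07 without passing.

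Among 15 proteins that tie the membrane to the cytoskeleton or form the parallel integrin link to laminin, 4 rose, 1 fell and 10 did not pass (median 0.03). Of all probe sets 12.8% were called in either direction. At an unadjusted p under 0.05 in limma there were 10 of the 15, beside 30.7% of all probe sets. The integrin chain Itga7, which pairs with Itgb1 as the other laminin receptor of the fibre, read 9.46 and 9.40 in the mdm mutants, against 8.87 and 8.81 in the wild types. It rose by 0.59 ± 0.06 or 1.50-fold (adjusted p = 0.00770), and Itgb1 by 0.32 ± 0.06 (0.0345). The intermediate filament genes Krt8 and Des rose by 1.07 ± 0.09 and 0.44 ± 0.08 (0.00732 and 0.0300), and the talin Tln2 fell by 0.32 ± 0.06 (0.0354). Krt8 and Itga7 passed with any 1 mouse left out. Des passed in 1 of those 4 fits, when mdm mutant 1 was absent (adjusted p up to 0.122 in the others), and Itgb1 and Tln2 in none, with adjusted p up to 0.144 and 0.133. Tln2 was also lost with the hybridization controls (0.0723).

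Partners of utrophin at the synapse and factors known to act on its promoter gave no call in limma among 8 matched genes of 9 listed. Of all probe sets 12.8% were called. There were 2 at an unadjusted p under 0.05, beside 30.7% of all probe sets, and the median was 0.02. The agrin receptor Lrp4 differed by 0.33 ± 0.11 (adjusted p = 0.121), the receptor kinase Musk by 0.12 ± 0.05, and the neuregulin receptors Erbb3 and Erbb2 by −0.16 ± 0.06 and 0.11 ± 0.05. With the hybridization controls Lrp4, Musk and Erbb2 passed as higher, on a scale where 17.2% of all probe sets were called higher.

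**Figure D4:**
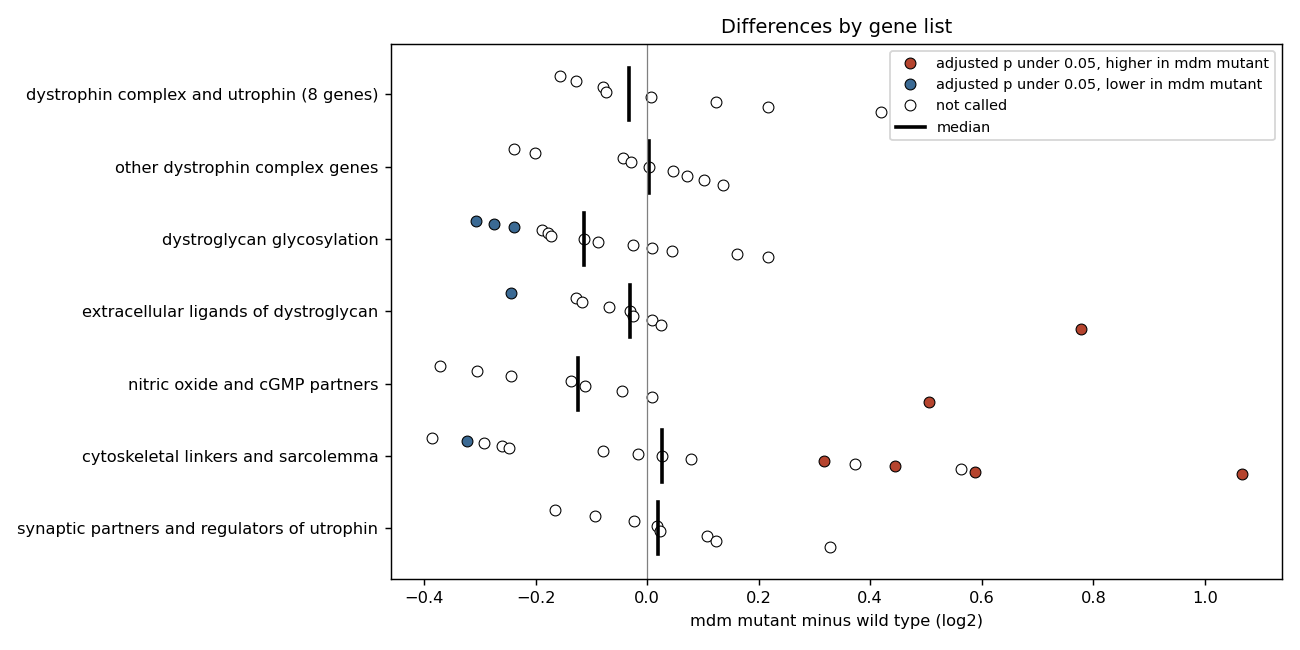
Difference between mdm mutant and wild type (log2, horizontal axis) of every matched gene in the 8-gene set and in 6 lists of functionally linked genes; red and blue points have an adjusted p under 0.05 and lie higher or lower in mdm mutant, white points did not pass, and bars are medians. The 8 genes hold no coloured point, and the points furthest right are Krt8 at 1.07 and Bgn at 0.78.

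Markers of other cell types differed between the groups, and in whole muscle fewer cells of a type and less RNA per cell cannot be told apart. For comparison with the counts below, 12.8% of all 16492 probe sets were called, 1066 up and 1049 down. At an unadjusted p under 0.05 in limma the share was 30.7%. Under that threshold were 9 of 9 regenerating fibre, 11 of 13 macrophage and 5 of 11 endothelial markers. The same held for 4 of 6 satellite cell, 2 of 8 smooth muscle and 3 of 7 fibroblast markers. Of 9 markers of embryonic and regenerating fibres 9 rose, with Myh8 and Myh3 at 2.68 ± 0.05 and 4.59 ± 0.16, and their mean level was 9.58 and 9.64 in the mdm mutants and 7.47 and 7.44 in the wild types. Of 13 macrophage markers 6 rose and 0 fell (median 0.56, range 0.04 to 1.54), with the smallest p for Mpeg1 and Fcgr3 (1.54 ± 0.15 and 0.72 ± 0.07), and with mean levels of 8.91 and 9.11 in the mdm mutants and 8.47 and 8.39 in the wild types. Of 11 endothelial markers 0 rose and 2 fell, Pecam1 and Robo4 (−0.33 ± 0.07 and −0.44 ± 0.10). Differences in this list were all negative (median −0.31, range −0.77 to −0.08), with mean levels of 8.42 and 8.08 in the mdm mutants and 8.60 and 8.53 in the wild types. Satellite cell markers included 3 rises among 6 and 3 that did not pass (median 0.27, range −0.03 to 0.95). The rises were Myf5, Pax7 and Chrdl2, at 0.95 ± 0.08, 0.29 ± 0.05 and 0.36 ± 0.08, and Calcr was the lowest of the list at −0.03 ± 0.08. Smooth muscle, fibroblast and Schwann cell markers had medians of −0.03, 0.07 and −0.08, with 1 fall among 8 (Cnn1, −0.24 ± 0.05, beside Acta2 at 0.44 ± 0.13), 1 rise among 7 (Lum, 0.42 ± 0.05, beside Col3a1 at 0.29 ± 0.07 and, lowest of the list, Col1a1 at −0.19 ± 0.11) and no call among 5, none at an unadjusted p under 0.05 (Pmp22 and Sox10 at 0.10 ± 0.05 and −0.09 ± 0.05). None of 10 mature fibre markers passed in limma, and none had an unadjusted p under 0.05. Their mean level was 14.13 in both mdm mutants and 14.20 and 14.18 in the wild types. Their median difference was 0.00, with a range from −0.40 (Pygm, ± 0.17) to 0.05 (Actn3, ± 0.07) and Myh4 at −0.20 ± 0.08. The sorted arrays held the same value, within 0.00001, at 99.8% of ranks. A gene of equal rank on such arrays therefore reads the same on them, whatever its amount of RNA. Equal values on at least 2 arrays were found for 7 of the 10 markers. For those 7, the lack of a call and the median of 0.00 cannot show that RNA levels were unchanged. The part of these cell types in the values of the 8 genes was not tested.

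Dmd was the only gene of the 8 whose values spanned 0.5 or more on the log2 scale, so likeness to other genes was measured for it alone. The measure was the root mean square distance over the 4 arrays between values centred on each gene's own mean, across 14835 named genes. The 3 nearest were Rbm17, a splicing factor, at a distance of 0.021, the matrix protein gene Tgfbi at 0.026, and the anthrax toxin receptor Antxr1, a membrane protein that binds matrix, at 0.030. Rbm17 read 9.43 and 9.50 in the mdm mutants, against 8.95 and 9.18 in the wild types, so wild type 1 was the lowest there as in Dmd. Their differences were 0.40 ± 0.09, 0.39 ± 0.09 and 0.42 ± 0.08 (limma adjusted p = 0.0441, 0.0506 and 0.0291). With a mouse left out Rbm17 and Tgfbi passed in 0 of 4 fits (adjusted p 0.0513 to 0.171 and 0.0586 to 0.192) and Antxr1 in 1, without wild type 2 (0.0475 to 0.121). The distances rest on 4 arrays, so they describe these mice only.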

How the data were processed

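The authors deposited log2 values computed by RMA (no version stated), per the submitters' processing notes. The labels state no array model, probe set definition or genome build. The table has 16553 probe sets, and its 61 array controls were not tested. Of 15270 probe sets in the platform annotation, 15250 (99.9%) had an ID equal to their Entrez number, which was used to find the 8 genes; listed genes were matched by annotated symbol, updated through RefSeq (GRCm38.p6). A gene with several probe sets was represented by the brightest; each of the 8 had 1.

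Differences were fitted with limma 3.58.1 in R 4.3.3 (lmFit, eBayes, 5.35 total degrees of freedom), as mutant minus wild type without covariates, over 16492 probe sets, called at a Benjamini-Hochberg adjusted p under 0.05. Permutation tests used scipy 1.17.1 and figures matplotlib 3.10.9. Replicate numbers only name mice. The precision is limited by the number of arrays, 4 in all.

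The 8 genes, the lists and the tests were chosen with earlier results of these data known, so none is independent support. Named were the 8 genes, the 4 genes of smallest p in each pathway list and the 2 of smallest p in each marker list. Added were the genes of any count of 5 or fewer calls with all 4 mice on the deposited scale, and the 3 genes nearest to Dmd. Outside this rule stand the checks Acta1 and Ttn, Lama2, and the ends of marker ranges (Calcr, Col1a1 and Actn3). So do Dpm2, Ank2 and Sync, which passed under other settings. Alternatives were a filter on dim probe sets, 3 other scalings, 2 other variance models, each mouse left out and other thresholds.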

Additional observations from a re-analysis of the deposited data

How the results depend on the processing

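Differences of the 8 genes kept their sign and stayed short of the threshold in 66 combinations of gene and setting, passed in 6 and turned sign in 6. Dmd passed at 0.42 without the dimmer probe sets and with trended and robust variances, and at 0.53 with hybridization controls, and ranged from 0.28 to 0.55 with a mouse left out (called at 0.55, without wild type 2). Among the scalings, filters, variance models and left-out mice run, Dag1 and Utrn passed with hybridization controls alone (0.33 and 0.23). That scaling adds a constant of 0.11, which turned Dtna to 0.039 and Nos1 to 0.033. With a mouse left out, Sgca ranged from −0.26 to 0.0066, Sgcd from −0.036 to 0.050 and Dtna from −0.21 to 0.065. Genes called among the 8 numbered 1, 1 and 3 under the dim filter, trended variances and hybridization controls, 0 to 1 with a mouse left out, and 2 at an adjusted p under 0.10. Of all probe sets, 2115 were called, 3432 with hybridization controls, 1 without variance moderation, 490 to 1182 with a mouse left out, and 3719 and 304 at thresholds of 0.10 and 0.01. Without variance moderation 3286 probe sets had an unadjusted p under 0.05.

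Calls in the lists moved as follows. With hybridization controls they numbered 2 among other complex genes, 1 among ligands, 3 among synaptic partners and 6 among linkers, in place of 0, 2, 0 and 5; in the glycosylation list 2 genes passed, both higher, in place of 3 lower. Without variance moderation they were 0 in all 6 lists. With trended variances they were 1 among other complex genes, 2 among glycosylation genes (Rxylt1 lost), 7 among linkers (Ank2 and Sync added) and 2 among nitric oxide partners, and also 2 in the last under the dim filter or repeated quantile normalization. With a mouse left out they were 0 among glycosylation genes, 1 among ligands, 1 to 2 among nitric oxide partners and 2 to 4 among linkers. The cause of these moves was not tested, except that a fit of 3 arrays has fewer samples and assumes that the lone mouse of a group varies like the others.

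The mean over several probe sets was not run for the 8 genes, which have 1 each, nor for the counts. No paired analysis was possible because the mice carry individual numbers that the groups do not share. Detection calls and signal over background are not used here. Signal over background for the dim genes Nos1 and Sgcd was not tested.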

Other observations

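The mature fibre genes lie near the top of the array. Of 10 mature fibre markers, 7 had the same value on at least 2 of the 4 arrays, and Acta1, skeletal actin, read 14.98 on all 4, the highest value in the table. With each array sorted, the 4 arrays held the same value, within 0.00001, at 16527 of 16553 ranks (99.8%), and at any rank they differed by at most 0.076. Sgca was the only gene of the 8 with a shared value on 2 arrays.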
